A study of Mus musculus with 11 samples.

Results

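The mTOR kinase, its complex partners, the tuberous sclerosis brake on it and the sestrins were examined as 9 genes: Mtor, Rptor, Rictor, Deptor, Rheb, Tsc1, Tsc2, Sesn1 and Sesn3. The members were all array probe sets whose platform annotation gave exactly 1 gene symbol and whose symbol was among these 9. This gave 28 probe sets out of 34958 with 1 symbol, and 9 genes out of 18194. Deptor had 6 probe sets, Rictor 5, Sesn1 4, Mtor, Rptor and Tsc1 3 each, Sesn3 2, and Rheb and Tsc2 1 each.

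RNA of T cells from mouse spleen was measured on 11 one-colour Affymetrix arrays, 1 per sample. The animals were females between 3 and 4 months old, either C57BL6 wild type or C57BL6 crbn-/-, called knockout here. Crbn encodes cereblon, through which thalidomide-type drugs act and which selects substrates for a CUL4 ubiquitin ligase. T cells were enriched by magnetic removal of other cells. They were taken naive (3 wild-type and 3 knockout arrays) or after 12 hours with anti-CD3 fixed to the plate at 5 µg/ml and anti-CD28 in solution at 1 µg/ml, called activated here (2 wild-type and 3 knockout arrays). Antibody to CD3 stands in for antigen and antibody to CD28 for costimulation. All groups share the C57BL6 background, and the sources used here do not give the deleted part of Crbn. No group kept in culture without the antibodies is listed, so stimulation cannot be told apart from culture, and the activated state is that of a culture dish.

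The mTOR kinase works in complexes that sense growth signals. Raptor (Rptor) defines mTORC1, which promotes protein synthesis and restrains autophagy, and rictor (Rictor) defines mTORC2, which phosphorylates AKT and SGK1. The GTPase Rheb switches mTORC1 on at the lysosome, the TSC1-TSC2 complex switches Rheb off by speeding its GTP hydrolysis, and sestrins hold mTORC1 back when amino acids are short or the cell is stressed. In T cells, antigen and CD28 signals engage this network as the cells leave quiescence, grow and begin to divide.

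Values are log2 expression levels from RMA, the summary of an array's probes into 1 value per probe set, as the authors deposited them. A difference of 1 on this scale is a doubling. Differences were tested with limma, with 1 fit over all 34958 probe sets and Benjamini-Hochberg adjustment over all of them. A probe set is said to pass, or to have risen or fallen, when its adjusted p is under 0.05. A gene is represented by its brightest probe set, the one of highest mean level over all 11 arrays. Signal above background was not shown for values under 4.57, the lowest lower quartile of any array, and such values are called low. Of the 28 probe sets, 5 were low in all 11 arrays: 3 of Deptor, 1 of Mtor and 1 of Rictor. The number of arrays limits the precision, and the median standard error over all genes was 0.100 log2 for a difference between wild-type states and 0.0896 for one between knockout states. The arrays of a group are labelled as biological replicates, and whether equal numbers in different groups share an animal is not stated.

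The libraries were checked before the members. In naive cells the knockout arrays lay below the wild-type arrays for Crbn (probe set 1423095_s_at) by a log2 difference of -1.13 (SE 0.086, 2.19-fold, limma adjusted p = 7.9e-05). In activated cells the difference was -0.90 (SE 0.097, 1.87-fold, limma adjusted p = 0.0039). All 7 measured T cell markers lay above the low reference in every array. Their summed level ran from 14.82 to 14.98 log2 in naive and from 14.01 to 14.21 in activated arrays, and 6 of 7 fell in each genotype. Markers of other cells were present too. The summed level of 3 NK cell markers ran from 12.27 to 12.58 in naive and from 11.43 to 11.63 in activated arrays. Of these, Ncr1 read 4.88 to 5.76 over all arrays. Nearly all of the sum came from Klrd1 and Nkg7, with means of 10.67 and 11.12 over all arrays. The summed level of 5 neutrophil markers ran from 7.88 to 9.98 and from 7.36 to 8.02, and was highest in knockout naive replicate 1. The summed level of 5 B cell markers ran from 9.97 to 11.4 in naive and from 8.86 to 10.1 in activated arrays. That of 6 macrophage markers ran from 9.66 to 10.5 and from 8.89 to 9.21. For 6 erythroid markers it ran from 10.98 to 12.84 in wild-type naive and from 9.52 to 9.65 in wild-type activated arrays. In knockout arrays it ran from 9.45 to 11.42 and from 9.04 to 9.84. Of these 6 markers 4 fell in wild-type cells and 1 in knockout cells, against 20.6% and 22.2% of all genes. In bulk RNA, fewer cells of a type and less RNA per cell cannot be told apart. The part of these shifts in the results below was not tested.

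In wild-type cells 5 of the 9 genes passed between the naive and the activated state. Rheb, Mtor and Rptor rose, by 1.19-fold to 1.34-fold, and Sesn1 and Rictor fell, 2.30-fold and 1.49-fold. In knockout cells 8 of 9 passed: the same 3 genes and Tsc2 rose, and Sesn1, Rictor, Sesn3 and Deptor fell. Tsc1 passed in neither genotype. Activation moved much of the transcriptome, which sets the background for these counts. Over all genes 40.2% passed in wild-type cells (19.6% higher, 20.6% lower) and 42.7% in knockout cells (20.5% higher, 22.2% lower). The members' 5 of 9 lies near that background. The median activation difference of the 9 genes was 0.05 log2 in wild-type and -0.14 in knockout cells, against 0.06 and -0.03 over all genes, so the members moved in both directions rather than as a block. Counted by probe set, 4 of 28 rose and 10 of 28 fell in wild-type cells, against 18.9% of all probe sets in each direction. In knockout cells 5 of 28 rose and 14 of 28 fell, against 21.5% and 20.2%. Probe sets that were low in all arrays are among these calls, though signal above background was not shown for them. They are Mtor 1446185_at, which rose in knockout cells from a mean of 3.99 to 4.31, and low Deptor probe sets, which fell in each genotype. Of the falling probe sets, 4 belonged to Sesn1 and 4 to Rictor in each genotype, so these counts are not of independent genes.

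**Figure D1:**
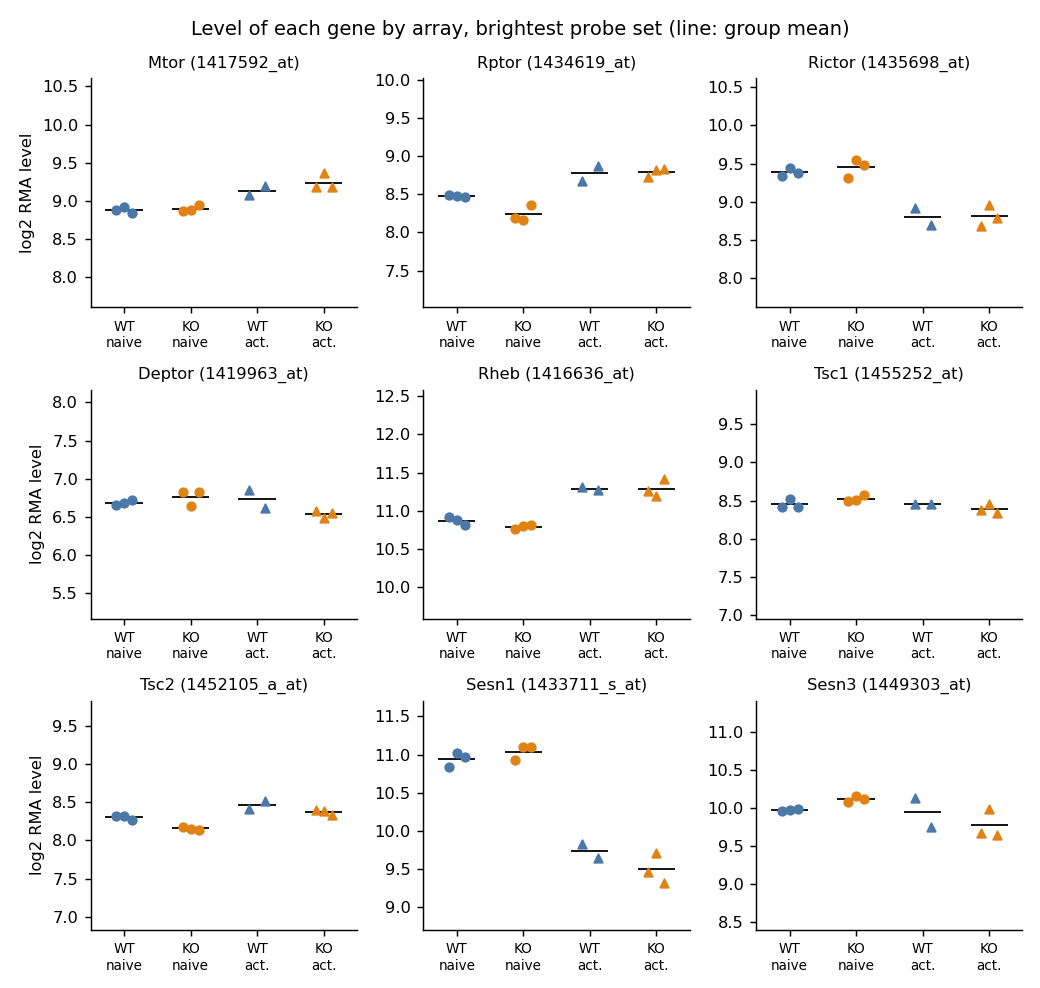
The log2 RMA level of each of the 9 genes on each array, by the brightest probe set, with circles for naive and triangles for activated arrays, blue for wild type (WT) and orange for knockout (KO), and a line at the group mean. Each panel spans the same number of log2 units. Sesn1 drops furthest, from 10.83 or above in every naive array to 9.83 or below in every activated one, Rictor drops less, Rheb, Rptor and Mtor rise by a smaller step, and Tsc1 stays between 8.33 and 8.58.

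Sesn1, a sestrin induced by p53 and by FOXO factors, had the largest change among the 9 genes by brightest probe set. On its brightest probe set (1433711_s_at) it read 10.83, 11.02 and 10.97 in the wild-type naive arrays and 10.93, 11.09 and 11.09 in the knockout naive arrays. After activation the wild-type arrays read 9.83 and 9.64, and the knockout arrays 9.46, 9.72 and 9.32. All 5 activated arrays lay more than a log2 unit below the mean of the naive arrays, and the naive and activated groups did not overlap. The difference was -1.20 log2 in wild-type cells (SE 0.12, 2.30-fold lower, limma adjusted p = 2.5e-06) and -1.54 in knockout cells (SE 0.10, 2.91-fold, limma adjusted p = 5.1e-08). By absolute size these changes ranked at place 1161 and at place 835 among 18194 genes. The order of group means was knockout naive, wild-type naive, wild-type activated and knockout activated, and within a state the genotypes did not differ past the threshold.

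The other 3 Sesn1 probe sets told of the same fall. Probe set 1444376_at went from a range of 6.65 to 7.11 in the 6 naive arrays to a range of 4.96 to 5.52 in the 5 activated arrays, a difference of -1.92 log2 in wild-type and -1.72 in knockout cells (3.79-fold and 3.29-fold lower). The differences were -1.57 and -1.52 for 1454699_at and -1.16 and -1.23 for 1438931_s_at. On 1438931_s_at the wild-type activated arrays lay far apart, at 9.95 and 9.02. All 4 passed in both genotypes, with limma adjusted p between 5.1e-08 and 4.9e-04.

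Sesn3, a sestrin also induced by FOXO factors, passed in knockout cells and not in wild-type cells. On its brightest probe set (1449303_at) the wild-type naive arrays read 9.97, 9.97 and 9.98, and the knockout naive arrays 10.08, 10.16 and 10.12. After activation the wild-type arrays read 10.13 and 9.76, and the knockout arrays 9.67, 9.99 and 9.65. The wild-type activated arrays straddled their naive arrays, while every knockout activated array lay below every knockout naive one. The wild-type difference was -0.03 log2 (SE 0.12, 95% interval -0.29 to 0.22, limma adjusted p = 0.87). The knockout difference was -0.35 (SE 0.11, 1.27-fold lower, limma adjusted p = 0.017). It did not pass without knockout activated replicate 1, knockout activated replicate 3 or knockout naive replicate 2 (limma adjusted p = 0.072, 0.077 and 0.055). The second Sesn3 probe set (1453313_at) gave -0.10 in wild-type cells (limma adjusted p = 0.54) and -0.38 in knockout cells (limma adjusted p = 0.0075). The test of the difference between the genotypes' responses did not pass for either probe set (-0.32 and -0.28 log2, limma adjusted p = 0.39 and 0.42).

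The first of 2 RefSeq promoter windows of Sesn1 and that of Sesn3 are shown because FOXO factors are known regulators of both genes. The values of these genes were unlike here. The window of Rheb, which rose in both genotypes, is shown too. Mtor and Rptor also rose in both, and their windows are not shown. The Sesn1 and Rheb windows shown are those of the members with a match to a motif named below, so the choice follows the matches. RefSeq windows on GRCm38.p6, from 250 bases before to 50 after the annotated start, were found for 8 of the 9 genes, with 9 windows in all because Sesn1 has 2. Each was searched on both strands for the forkhead core TAAACA, the core of the sequence that FOXO factors bind, and for the E-box CACGTG, to which MYC and TFEB bind. These letters do not overlap each other. Capitals mark a match.
Sesn1, chr10:41810324-41810623, plus strand: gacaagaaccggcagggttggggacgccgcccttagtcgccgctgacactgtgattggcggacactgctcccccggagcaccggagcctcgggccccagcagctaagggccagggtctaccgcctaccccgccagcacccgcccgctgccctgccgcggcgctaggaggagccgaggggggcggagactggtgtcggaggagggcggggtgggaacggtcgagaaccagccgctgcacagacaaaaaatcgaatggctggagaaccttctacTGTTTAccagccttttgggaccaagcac
Sesn3, chr9:14276051-14276350, plus strand: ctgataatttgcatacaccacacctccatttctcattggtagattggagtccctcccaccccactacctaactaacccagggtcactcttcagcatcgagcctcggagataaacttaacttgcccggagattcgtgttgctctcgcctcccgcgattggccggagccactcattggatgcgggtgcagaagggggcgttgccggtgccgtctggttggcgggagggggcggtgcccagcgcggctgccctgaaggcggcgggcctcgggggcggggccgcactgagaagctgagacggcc
Rheb, chr5:24842312-24842611, minus strand: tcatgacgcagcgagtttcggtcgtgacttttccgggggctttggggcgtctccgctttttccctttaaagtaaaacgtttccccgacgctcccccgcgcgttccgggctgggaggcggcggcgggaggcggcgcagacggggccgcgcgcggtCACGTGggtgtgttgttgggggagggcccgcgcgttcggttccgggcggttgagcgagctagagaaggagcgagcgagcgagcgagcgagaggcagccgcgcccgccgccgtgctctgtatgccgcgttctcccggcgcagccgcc
The first Sesn1 window holds the forkhead core read from the other strand, TGTTTA, with its first base at position 23 when the start is position 1. The second Sesn1 window (chr10:41887189-41887488) and the Sesn3 window hold neither motif. The Rheb window holds CACGTG with its first base at position -96. The forkhead core occurred in 13.4% of all 32851 RefSeq windows and the E-box in 7.15%, against 1 each of the 9 windows here. A match is a stretch of letters, not a shown binding site, and the windows of Mtor, Rptor, Rictor, Tsc1 and Tsc2 held neither. G and C made up between 41.7% (Rptor) and 78.3% (Rictor) of a window.

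Rictor, the subunit that defines mTORC2, fell in both genotypes. The brightest probe set (1435698_at) read 9.33, 9.45 and 9.37 in wild-type naive and 9.31, 9.55 and 9.49 in knockout naive arrays. It read 8.92 and 8.69 in wild-type activated and 8.68, 8.95 and 8.79 in knockout activated arrays. The naive and activated arrays did not overlap, and the genotypes lay together within each state. The difference was -0.58 log2 in wild-type cells (SE 0.11, 1.49-fold lower, limma adjusted p = 6.1e-04) and -0.64 in knockout cells (SE 0.094, 1.56-fold, limma adjusted p = 7.2e-05). With the mean of all 5 probe sets the wild-type difference was -0.88.

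The probe sets of Rictor disagreed in the size of the fall. Probe set 1453775_at read 8.15, 8.27 and 8.21 in wild-type naive, 8.08, 8.07 and 8.22 in knockout naive, 6.07 and 6.07 in wild-type activated and 6.39, 6.65 and 6.55 in knockout activated arrays. Its difference was -2.14 log2 in wild-type cells (SE 0.091, 4.40-fold lower, limma adjusted p = 3.6e-09) and -1.59 in knockout cells (SE 0.082, 3.02-fold, limma adjusted p = 5.3e-09). That is the largest wild-type change among all 28 probe sets. Probe set 1441753_at fell too (-1.13 and -1.02), and so did 1429810_at (-0.55 and -0.38), the last with overlap between knockout naive and activated arrays (limma adjusted p = 0.046). Probe set 1427583_at was low in all arrays and read 4.14 to 4.24 in every group mean. The files do not say which transcripts or ends of Rictor each probe set matches.

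**Figure D2:**
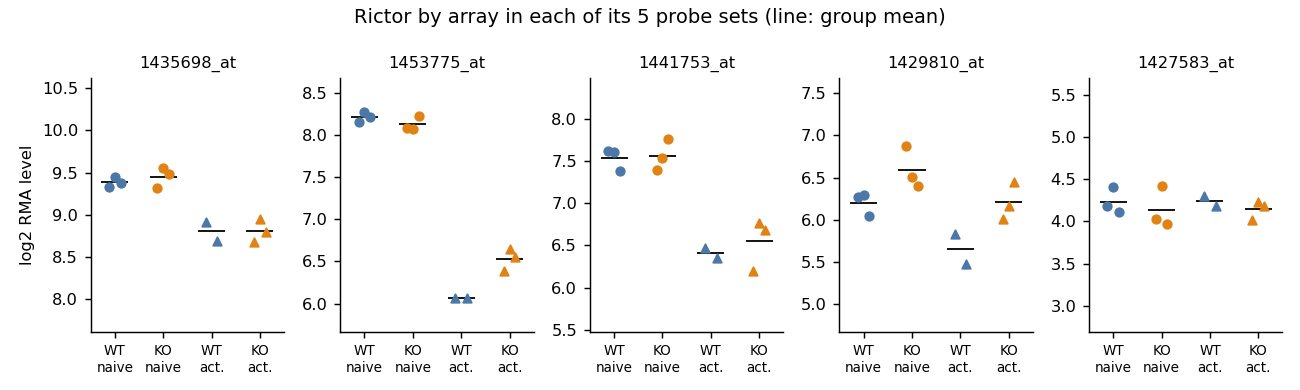
The log2 RMA level of Rictor on each array in each of its 5 probe sets, with circles for naive and triangles for activated arrays, blue for wild type and orange for knockout, and a line at the group mean. The step down after activation is largest on 1453775_at, where the wild-type activated arrays at 6.07 lie below the knockout activated arrays at 6.39 to 6.65, and it is absent on 1427583_at, which is low throughout.

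Mtor, the kinase itself, rose slightly. The brightest probe set (1417592_at) read 8.88, 8.92 and 8.84 in wild-type naive and 8.87, 8.88 and 8.95 in knockout naive arrays. It read 9.07 and 9.19 in wild-type activated and 9.18, 9.37 and 9.18 in knockout activated arrays. Every activated array lay above every naive one, with a narrow gap between knockout naive replicate 3 and wild-type activated replicate 1. The rise was 0.25 log2 in wild-type cells (SE 0.084, 1.19-fold, limma adjusted p = 0.030) and 0.34 in knockout cells (SE 0.075, 1.27-fold, limma adjusted p = 0.0020). The wild-type rise did not pass without wild-type activated replicate 2, wild-type naive replicate 1 or wild-type naive replicate 3 (limma adjusted p = 0.17, 0.059 and 0.076), nor with array weights (0.078) or with only the compared arrays (0.064). The second probe set (1436267_a_at) differed by 0.15 in wild-type and by -0.08 in knockout cells and passed in neither (limma adjusted p = 0.22 and 0.45). The third probe set (1446185_at) was low in all arrays. Its means were 4.00 in wild-type naive, 4.13 in wild-type activated, 3.99 in knockout naive and 4.31 in knockout activated arrays. It passed in knockout cells only. With the mean of the 3 probe sets the knockout difference of Mtor was 0.19.

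Rptor, the scaffold that brings substrates to mTORC1, also rose. On probe set 1434619_at it read 8.49, 8.47 and 8.47 in wild-type naive and 8.19, 8.17 and 8.37 in knockout naive arrays. It read 8.68 and 8.87 in wild-type activated and 8.72, 8.82 and 8.83 in knockout activated arrays. The knockout naive arrays were the lowest of all and the activated arrays of both genotypes overlapped. The rise was 0.30 log2 in wild-type cells (SE 0.088, 1.23-fold, limma adjusted p = 0.017) and 0.55 in knockout cells (SE 0.079, 1.46-fold, limma adjusted p = 5.9e-05). Without wild-type activated replicate 2 the wild-type rise was 0.20 and did not pass (limma adjusted p = 0.15). The other Rptor probe sets did not share the pattern: 1430784_a_at, low in 3 of 11 arrays, rose by 0.24 in wild-type cells (limma adjusted p = 0.034) and differed by 0.06 in knockout cells, and 1458472_at passed in neither. With the mean of the 3 probe sets the knockout rise was 0.22, less than on the brightest alone.

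Deptor binds mTOR in both complexes and dampens it, and 3 of its 6 probe sets were low in all arrays. Its brightest probe set (1419963_at) read 6.65, 6.69 and 6.73 in wild-type naive and 6.82, 6.64 and 6.82 in knockout naive arrays. It read 6.85 and 6.62 in wild-type activated and 6.58, 6.49 and 6.55 in knockout activated arrays. The knockout activated arrays were the lowest, and the wild-type activated arrays spread over the range of the naive ones. The wild-type difference was 0.05 (SE 0.090, limma adjusted p = 0.73) and the knockout difference -0.22 (SE 0.081, 1.17-fold lower, limma adjusted p = 0.040). The knockout call was lost in 10 of the alternatives, among them when any 1 of the 3 knockout activated arrays was left out, with limma adjusted p between 0.055 and 0.13. The probe sets 1453571_at (-0.38 and -0.34, limma adjusted p = 0.018 and 0.016) and 1428622_at (-0.20 and -0.43, limma adjusted p = 0.17 and 0.0022) were lower after activation by more than the brightest one.

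Rheb, the GTPase that activates mTORC1, rose in both genotypes. Its probe set (1416636_at) read 10.92, 10.88 and 10.81 in wild-type naive and 10.76, 10.80 and 10.81 in knockout naive arrays. It read 11.31 and 11.27 in wild-type activated and 11.26, 11.19 and 11.41 in knockout activated arrays. Activated arrays stood above naive ones without overlap, and the genotypes overlapped in the activated state. Rheb rose by 0.42 log2 in wild-type cells (SE 0.082, 1.34-fold, limma adjusted p = 0.0010) and by 0.50 in knockout cells (SE 0.074, 1.41-fold, limma adjusted p = 8.0e-05). The call held in all alternatives that were run, leaving out each array included.

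Of the TSC brake, Tsc1, the stabilising subunit, did not pass. Its brightest probe set (1455252_at) read 8.41, 8.53 and 8.42 in wild-type naive, 8.49, 8.51 and 8.58 in knockout naive, 8.45 and 8.46 in wild-type activated and 8.38, 8.45 and 8.33 in knockout activated arrays. The wild-type groups overlapped and differed by 0.00 log2 (95% interval -0.16 to 0.17), and the knockout difference was -0.14 (95% interval -0.29 to 0.01, limma adjusted p = 0.13). The other Tsc1 probe sets passed in neither genotype.

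Tsc2, the subunit with the GTPase-activating domain, read 8.32, 8.32 and 8.26 in wild-type naive and 8.18, 8.15 and 8.14 in knockout naive arrays on its probe set (1452105_a_at). It read 8.41 and 8.52 in wild-type activated and 8.40, 8.39 and 8.33 in knockout activated arrays. Activated arrays lay above the naive arrays of their genotype, and knockout arrays below the wild-type arrays of their state. The wild-type difference was 0.16 (SE 0.073, limma adjusted p = 0.096). In knockout cells Tsc2 rose by 0.22 (SE 0.065, 1.16-fold, limma adjusted p = 0.016), a call that did not pass without knockout activated replicate 1 (limma adjusted p = 0.055).

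Groups without overlap were common on these arrays. Of the 9 genes, 6 had no overlap between naive and activated arrays in wild-type cells, against 57% of all genes, and 9 had none in knockout cells, against 52.5%.

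**Figure D3:**
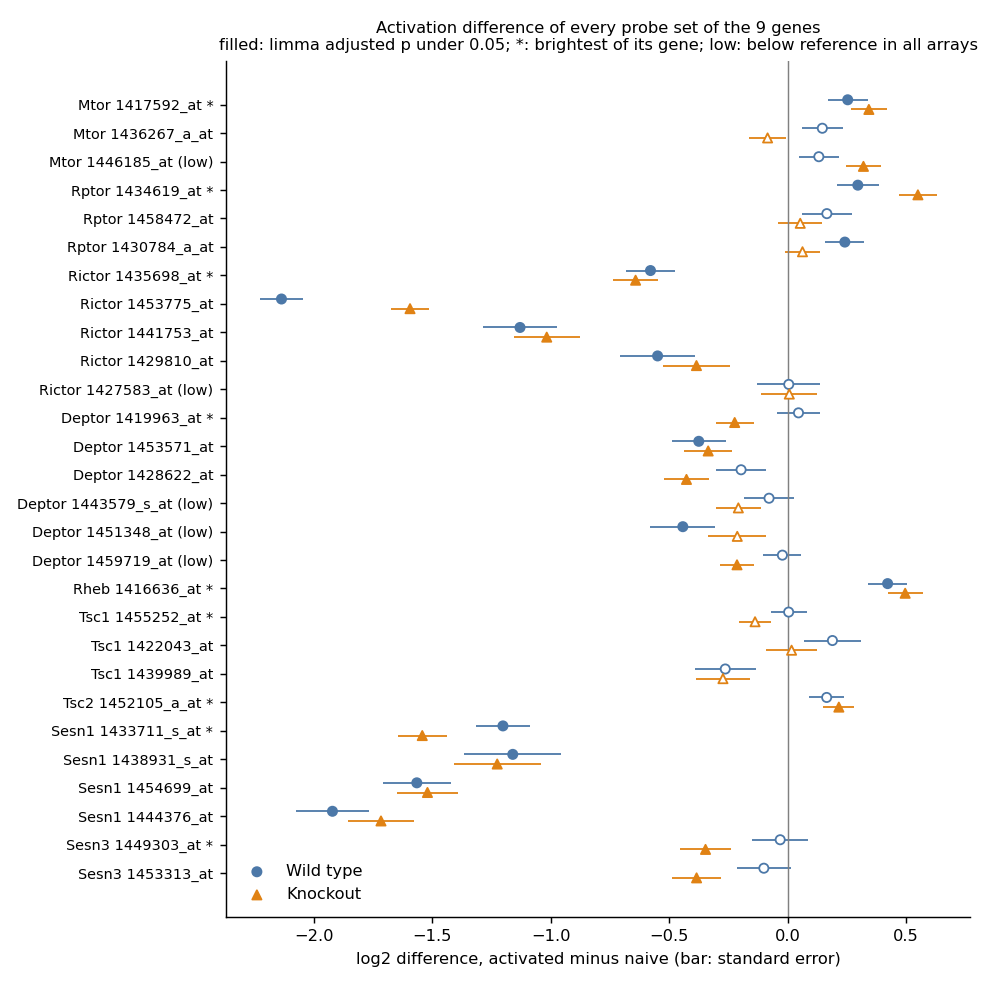
The log2 difference between activated and naive cells for all 28 probe sets, with wild-type cells as blue circles, knockout cells as orange triangles and bars of 1 standard error. Filled symbols passed a limma adjusted p of 0.05, a star marks the brightest probe set of a gene and "low" marks the 5 probe sets that were low in all arrays. All 4 Sesn1 probe sets and 4 of 5 Rictor probe sets lie to the left of 0 in both genotypes, while the probe sets of Mtor, Rptor and Deptor differ from each other.

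The comparison of knockout with wild-type cells asked whether loss of Crbn alters these genes in either state. None of the 9 genes passed in naive cells, where limma called 0.148% of all genes. None passed in activated cells, where 0.0605% of all genes were called, or over the mean of both states, where 0.121% were. In the test of whether the response to activation differed between genotypes 0 of 9 passed, as did 0% of all genes, that is none. Counted by probe set, 0 of 28 passed in each of these, against 0.157% of all probe sets in naive cells, 0.0629% in activated cells, 0.154% over both states and 0% in the test of the response. At an unadjusted limma p under 0.05, 2 of the 9 genes passed in naive cells (Rptor and Tsc2) against 14% of all genes, and 0 in activated cells against 6.61%. On the same unadjusted measure 2 passed for the response (Deptor and Sesn1) against 13.5%, and 1 over both states (Tsc2) against 6.91%. With so few arrays, and few genes called anywhere, these counts of 0 do not show that the genotypes act alike.

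**Figure D4:**
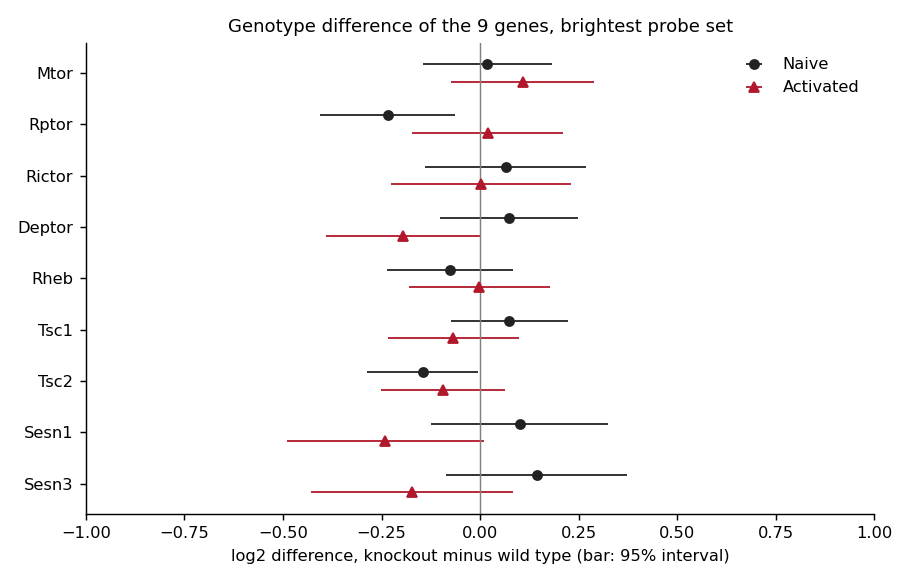
The log2 difference between knockout and wild-type cells for the 9 genes by the brightest probe set, in naive (black circles) and activated cells (red triangles), with bars for the 95% interval of limma's fit. All points lie between -0.24 and 0.14. The intervals of naive Rptor and naive Tsc2 lie below 0 before adjustment, and no difference passed after it.

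For Rheb, Mtor, Rictor and Sesn1 the 95% intervals on the brightest probe set give the sizes that the data allow. For Rheb the difference was -0.08 log2 in naive cells (95% interval -0.24 to 0.08) and 0.00 in activated cells (-0.18 to 0.18). For Mtor it was 0.02 (-0.14 to 0.18) and 0.11 (-0.07 to 0.29), and for Rictor 0.07 (-0.14 to 0.27) and 0.00 (-0.23 to 0.23). The activated interval of Sesn1 was wider and ran from -0.49 to 0.01 around -0.24. These intervals are not adjusted for the number of genes.

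Rptor had the smallest p among the members in naive cells. The 3 knockout naive arrays (8.17 to 8.37) lay below the 3 wild-type ones (8.47 to 8.49), a difference of -0.23 log2 (SE 0.079, limma adjusted p = 0.21). Rptor probe set 1430784_a_at differed in the opposite direction, by 0.16 (limma adjusted p = 0.35), and so did 1458472_at, by 0.12 (limma adjusted p = 0.58). With the mean of the 3 probe sets the naive Rptor difference was 0.01 (limma adjusted p = 0.92). In activated cells the Rptor difference was 0.02, and the test of the response gave 0.25 (limma adjusted p = 0.36).

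Tsc2 had the smallest p over both states. The knockout arrays lay below the wild-type arrays in naive cells (-0.15, limma adjusted p = 0.33) and in activated cells (-0.09, limma adjusted p = 0.81), and the mean difference was -0.12 (SE 0.049, limma adjusted p = 0.55). Arrays of the genotypes did not overlap for 3 of the 9 genes in naive cells (Rptor, Sesn3 and Tsc2), against 20.4% of all genes. In activated cells they did not overlap for 2 (Deptor and Tsc2), against 19.4%.

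The smallest p of any member probe set in a genotype comparison came from a Rictor probe set that was not the brightest. On 1453775_at the activated knockout arrays lay above the activated wild-type arrays by 0.46 log2 (SE 0.091, 1.37-fold, limma adjusted p = 0.14), and the response differed by 0.54 (SE 0.12, limma adjusted p = 0.19). The brightest Rictor probe set gave 0.00 and -0.06 for the same comparisons. Probe set 1429810_at was higher in knockout arrays in naive cells (0.39, limma adjusted p = 0.24) and in activated cells (0.55, limma adjusted p = 0.34), and 0.47 higher over both states (limma adjusted p = 0.19). On Sesn3 probe set 1453313_at the knockout activated arrays (8.60, 8.89 and 8.38) lay below the wild-type ones (9.002 and 9.001), a difference of -0.38 log2 (limma adjusted p = 0.37). None of these passed.

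Markers of other cell types are given here beside the naive genotype comparison. The summed level of 6 erythroid markers ran from 11.0 to 12.8 log2 in wild-type naive and from 9.45 to 11.4 in knockout naive arrays, with Hba-a1 low in 9 of 11 arrays and 0 of 6 markers past the threshold. The ranges overlapped, and the median difference of these markers was -1.33. The 5 B cell markers ran from 9.97 to 10.4 and from 10.3 to 11.4, with 0 past the threshold. Their part in the naive differences of Rptor and Tsc2 was not tested.

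The rest of the pathway was described from gene lists, by counts and medians only. The background for each count is the share of all genes given above, 19.6% higher and 20.6% lower in wild-type cells and 20.5% and 22.2% in knockout cells, and nothing is read from counts near it. Among 8 other subunits and assembly factors of the mTOR complexes, 3 rose and 0 fell in wild-type cells (median 0.17), and 5 rose and 1 fell in knockout cells (median 0.33). The assembly factors Tti2 (0.98 and 1.12 log2) and Telo2 (0.61 and 0.59) rose in both genotypes, as did Akt1s1 (0.37 and 0.54), which encodes the mTORC1 inhibitor PRAS40. Mlst8, the subunit shared by both complexes, differed by 0.08 and 0.10 and passed in neither; it was chosen after its values were seen. In knockout cells alone Prr5l, an mTORC2 partner, passed with -0.52, against -0.20 in wild-type cells, and the test of that difference did not pass (limma adjusted p = 0.39); it too was chosen after its values were seen.

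Of 4 other genes of the TSC and Rheb axis only Ddit4 passed. Ddit4 encodes REDD1, which releases TSC from inhibition under stress, and went from a mean of 9.89 to 8.34 in wild-type cells (-1.55, SE 0.095, limma adjusted p = 6.1e-08) and from 10.05 to 8.21 in knockout cells (-1.85, SE 0.086, limma adjusted p = 2.3e-09). 

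Of 26 measured genes of the amino acid branch to mTORC1, 9 rose and 5 fell in wild-type cells (median 0.07), and 10 rose and 7 fell in knockout cells (median 0.11), with the share that fell near that of all genes. The Rag GTPase gene Rragd rose from 6.21 to 8.18 in wild-type cells (1.96) and by 1.82 in knockout cells. Fnip2, a partner of folliculin, rose by 1.40 and by 2.72, from 6.11 to 7.51 and from 4.98 to 7.70. Its wild-type naive arrays lay far apart, at 6.92, 6.06 and 5.34, while the knockout naive arrays read 5.15, 4.98 and 4.81. The summed erythroid marker level of the same arrays was 12.84, 11.77 and 10.98 in the wild type and 11.42, 10.01 and 9.45 in the knockout, in the same order within each genotype, and its part in the Fnip2 differences was not tested. Seh1l, a GATOR2 subunit, rose by 0.92 and by 1.09, and Slc38a9, the lysosomal arginine sensor, fell (-1.04 and -0.88). Sesn2, the sestrin known as a leucine sensor, differed by 0.05 and 0.09 log2 and passed in neither genotype (limma adjusted p = 0.71 and 0.37); it was chosen after its values were seen.

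Among 11 measured genes listed for mTORC1 substrates or targets further downstream, 2 rose and 6 fell in wild-type cells (median -0.34). In knockout cells 2 rose and 5 fell (median -0.26). Lpin1, which encodes a phosphatidate phosphatase, fell (-1.54 and -1.61), as did Pdcd4, an inhibitor of translation initiation (-0.82 and -1.01). Eif4ebp1, the translation repressor 4E-BP1, rose by 0.90 and by 1.84, and the RNA-binding gene Larp1 by 0.83 and by 0.93. These are transcript levels and carry no measure of phosphorylation.

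Of 4 measured kinases that depend on mTORC2, Sgk1 fell from 11.13 to 8.21 in wild-type cells (-2.92, SE 0.10, limma adjusted p = 9.6e-10) and differed by -2.99 in knockout cells. Akt2 rose by 0.57 and by 0.69. Akt1 passed in knockout cells only, with 0.24 against 0.09 in wild-type cells, and the test of the difference did not pass (limma adjusted p = 0.51). Prkca, a protein kinase C gene, passed in neither.

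Lists of p53 targets and of FOXO-dependent genes were set beside the sestrins, because both are known to drive sestrin transcription. Of 9 measured p53 targets, 2 rose and 5 fell in wild-type cells (median -0.32), and 3 rose and 5 fell in knockout cells (median -0.35). The share that rose in wild-type cells was near that of all genes. The stress gene Gadd45a (-3.49 and -3.20) and the death genes Pmaip1 (-1.49 and -1.15) and Bbc3 (-1.08 and -0.87) fell, and the cell-cycle inhibitor gene Cdkn1a rose by 1.17 and by 1.25. Of 12 measured FOXO-dependent genes, 2 rose and 8 fell in each genotype (median -1.25 and -1.51). S1pr1 and Klf2, genes of T cell egress and quiescence, fell in wild-type cells (-3.04 and -2.94) and in knockout cells (-3.99 and -3.59). Il7r, a survival receptor gene, fell too (-2.52 and -3.00), as did Pik3ip1, a brake on PI3K (-2.03 and -2.82). Against these medians stand the Sesn1 differences of -1.20 and -1.54 and the Sesn3 differences of -0.03 and -0.35.

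**Figure D5:**
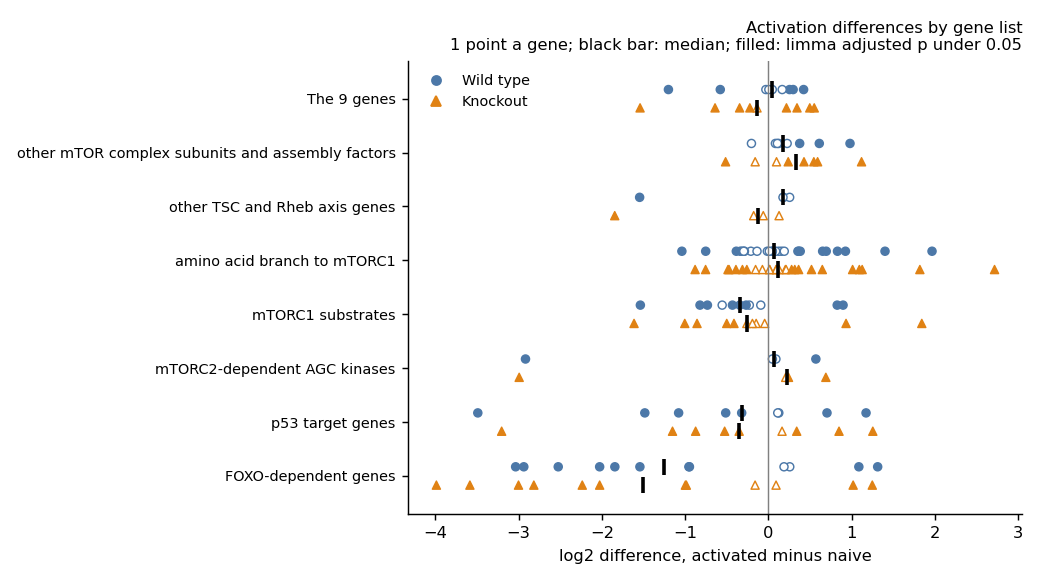
The log2 difference between activated and naive cells, 1 point per gene by its brightest probe set, for the 9 genes and the 7 lists, with wild-type cells as blue circles and knockout cells as orange triangles. Filled symbols passed a limma adjusted p of 0.05 and the black bar is the median of a list. The FOXO-dependent genes have the lowest medians, -1.25 and -1.51, and the 9 genes lie on both sides of 0 with medians of 0.05 and -0.14.

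No gene of these 7 lists passed in a genotype comparison or in the test of the response. In naive cells the smallest p of each list belonged to Tti1 (-0.15), Ddit4l (0.28), Fnip2 (-1.13), Eif4ebp1 (-0.67), Akt1 (-0.09), Gadd45a (-0.27) and Bcl6 (0.31), with a limma adjusted p of 0.13 for Fnip2 and 0.16 for Eif4ebp1. Eif4ebp1 read 8.88, 8.34 and 8.04 in the wild-type naive and 8.04, 7.78 and 7.44 in the knockout naive arrays. Like Fnip2 it followed the order of the erythroid marker level given above within each genotype, whose part in these differences was not tested. In activated cells they were Prr5 (-0.27, low in all arrays), Ddit4 (-0.14), Wdr59 (0.18), Atg13 (-0.16), Prkca (0.26), Pmaip1 (0.53) and S1pr1 (-0.74), and S1pr1 came nearest to passing (limma adjusted p = 0.15). In the test of the response S1pr1 again had the lowest adjusted p, with -0.95 (limma adjusted p = 0.18), before Eif4ebp1 (0.95, limma adjusted p = 0.22) and Fnip2 (1.32, limma adjusted p = 0.24). The others there were Prr5 (-0.27), Ddit4l (-0.36), Akt1 (0.15) and Gadd45a (0.29). Over both states the smallest p belonged to Prr5 (-0.13), Ddit4l (0.10), Fnip2 (-0.47), Grb10 (-0.40), Prkca (0.18), Pmaip1 (0.36) and Klf2 (-0.28), with limma adjusted p from 0.44 upward. Activation and genotype comparisons share the naive and the activated arrays of each genotype, so their values are not independent of each other.

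The genes most like Sesn1 across the 11 arrays, by Pearson correlation of log2 level, were Fam78a, Spata13 and Tbc1d10c, each at 0.997. With naive and activated arrays far apart such values are common, and 1757 genes correlated with Sesn1 above 0.95. For Tsc2 the nearest were Aldh9a1 (0.963), Gfm2 (0.962) and Ckap5 (0.959), and 6 genes exceeded 0.95. These are descriptions over arrays that share a state.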

How the data were processed

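T cell RNA of 11 samples was labelled with biotin from 100 ng and hybridised to 1 array each. Per the submitters' processing notes, GCOS, RMA and Partek were used; versions and roles: not given in the sources used here. Deposited values of 45101 probe sets are log2 levels, with 0 missing values and column medians from 5.84 to 5.89, and were used with no new normalization. The platform's annotation gave 34958 probe sets 1 gene symbol, 932 several and 9211 none. Entrez numbers of 34754 were found in a RefSeq gene table of GRCm38.p6, and 0 symbols were renamed.

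One limma 3.58.1 fit (R 4.3.3) over the 34958 probe sets gave each of the 4 groups a mean, with moderated variances (prior degrees of freedom 5.74, residual 7). The 6 comparisons were activation in each genotype, genotype in each state, genotype over both states and the difference between the responses. The code of the fit was tried on simulated data with independent noise and few changed probe sets. These settings differ from the data here, so the trial does not bear on the calls. P-values were adjusted over all probe sets by Benjamini-Hochberg. Drawing used Python 3.11.15, pandas 2.3.3 and matplotlib 3.10.9.

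The 9 genes, the lists and the tests were chosen with earlier results of these data known. Named were Crbn, the 9 genes and up to 4 genes of each list with the largest wild-type change among those that passed. The smallest p of each list in each genotype comparison was named too. Every probe set of the 9 genes is drawn in a figure, and some of them have no values in the text. Of 125 listed symbols, 10 are not analysed here. Lists got counts and medians and no test. The fit was repeated with 1 probe set per gene, the mean of a gene's probe sets, probe sets above the median level, limma's variance trend together with its robust prior, array weights, only the compared arrays, another quantile normalization, centring on the median, replicate blocks and each array left out. The tenth percentile (3.64) served as another low reference.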

Additional observations from a re-analysis of the deposited data

How the results depend on the processing

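Of 386 differences recomputed under the alternatives, 362 kept their direction and side of the threshold, 23 kept their direction and no longer passed, and 1 changed direction. The last is the naive Rptor difference, which did not pass and went from -0.23 to 0.014 with the mean of a gene's probe sets. Recomputed were the differences of the 9 genes that passed, naive Rptor, Tsc2 over both states and Rictor probe set 1453775_at. Differences outside these were not recomputed singly, so a change of direction or a call gained among them does not appear. Of 416 recomputed counts, 409 stayed within 1.5 times the reported count and 7 did not. The count of the 9 genes that passed in wild-type activation was 5. It was 7 with the mean of a gene's probe sets, 6 with quantile normalization again, 4 with array weights or only the compared arrays and 3 with a replicate block within genotype, and ran from 3 to 5 when an array was left out, with 3 without wild-type activated replicate 2. With the mean of a gene's probe sets or quantile normalization again, the wild-type calls gained were among Tsc1, Tsc2, Deptor and Sesn3. The count in knockout activation was 8 and ran from 5 to 8, with 5 without knockout activated replicate 1. Leaving out a wild-type activated array leaves 1 in its group, which is then assumed to vary like the other groups. The counts of 0 in the genotype comparisons and in the response stayed 0 for the 9 genes in each alternative. Of the member probe sets, 5 were low in all arrays, and 1 with the tenth percentile as reference.

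Whether replicate numbers pair the samples was not settled. Deviations of same-numbered arrays correlated across genes from -0.299 to 0.391, pairs across genotypes included, and not all exceeded 0.1. Between naive and activated arrays the correlations were 0.270, 0.0871 and 0.216 in knockout cells and -0.299 and -0.178 in wild-type cells. Arrays of unlike number were not compared. With the replicate block over all arrays 5 and 8 of the 9 genes passed, and within genotype 3 and 6. The calls lost within genotype were Mtor and Rptor in wild-type cells (limma adjusted p = 0.12 and 0.060) and Tsc2 and Deptor in knockout cells (0.058 and 0.071). Over all probe sets the naive genotype calls went from 55 to 344 with the replicate block, 702 with array weights, 14 with only the compared arrays and 521 without wild-type naive replicate 3. The activated calls went from 22 to 1 without wild-type activated replicate 1, and calls for the response from 0 to 49 and 54 with the replicate blocks. Causes of these shifts were not tested. Signal near background limits 5 probe sets, and 2 wild-type activated arrays limit each comparison that uses them.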

Other observations

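The activation changes of Crbn itself are given as values: the difference after activation was -0.53 log2 in wild-type cells, from readings of 10.06, 10.21 and 10.09 to 9.71 and 9.47, and -0.30 in knockout cells, from 8.97, 9.07 and 8.91 to 8.70, 8.77 and 8.58 (limma adjusted p = 6.0e-04 and 0.011). The difference between these responses was 0.23 (limma adjusted p = 0.44).

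Among FOXO-dependent genes outside the naming rule, chosen after their values were seen, the pro-apoptotic gene Bcl2l11 rose by 1.31 log2 in wild-type and 1.02 in knockout cells and the autophagy gene Gabarapl1 by 1.09 and 1.25, while the cell-cycle inhibitor gene Cdkn1b fell (-1.84 and -2.24). Among genes of the lysosomal scaffold that anchors Rag GTPases, also chosen after their values were seen, Lamtor3 rose by 0.35 and 0.36, and Lamtor2 (-0.75 and -0.76) and Lamtor4 (-0.39 and -0.49) fell.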
